A study of Mus musculus with 6 samples.

Results

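The 9 genes described here are the uncoupling proteins *Ucp1*, *Ucp2* and *Ucp3*, the brown and beige adipocyte genes *Prdm16*, *Dio2*, *Cited1* and *Tmem26*, and the creatine kinases *Ckb* and *Ckmt2*. They were taken by gene symbol, all 9 of 9 matching, from RNA-Seq count tables that hold 24421 gene symbols for each of 6 libraries. The cells were 3T3-L1, a clonal mouse line that differentiates into adipocytes in culture, which the labels list under strain C57BL/6. At 2 days post-confluency every culture received insulin (870 nM), troglitazone (TZD, 5 µM), dexamethasone (1 µM), IBMX (500 µM) and 10% CS, with dexamethasone and IBMX withdrawn on day 3. On day 7 the cells were infected at 100 pfu/cell with an adenovirus carrying *LacZ* (AdLacZ, control) or a codon-optimized mouse *Lmo3* (Ad*Lmo3*), and RNA was isolated after 72 h from 3 separate infections per virus. Both groups therefore carried an adenovirus and had been differentiated with a PPARγ agonist, and there was no uninfected group.

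Brown and beige adipocytes burn fuel as heat. UCP1, in the inner mitochondrial membrane, lets protons bypass ATP synthase, while its relatives UCP2 and UCP3 do not replace it in this role. PRDM16 is a transcriptional co-regulator that drives the brown fat program, and the deiodinase DIO2 makes active thyroid hormone inside the cell. CITED1 and TMEM26 are used as beige adipocyte markers, and creatine kinases serve a creatine cycle that dissipates ATP independently of UCP1. 3T3-L1 cells are usually regarded as a white adipocyte model.

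Among the 9 genes, only *Ucp2* and *Ucp3* were well expressed, and *Ucp3* was 1.57-fold higher in Ad*Lmo3* than in AdLacZ libraries. *Cited1* and *Dio2* were barely detected. *Ucp1*, *Prdm16*, *Tmem26*, *Ckb* and *Ckmt2* never exceeded 3 counts in any of the 6 libraries, and these 5 genes collected 21 counts in all. The library totals were 28035639 to 38332335 gene counts. A value of 3 counts, taken as the smallest detectable number, corresponded to 0.0768 to 0.111 CPM (counts scaled to a common library size by TMM normalization). This is a fixed cutoff and not an error estimate, and its range reflects the scaled library sizes only. *Lmo3* itself had 0 counts in all 6 libraries, so the codon-optimized transgene was not seen in its row and the group labels could not be checked through it.

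*Ucp3* and *Ucp2* are neighbours on the plus strand of chromosome 7 (GRCm38). *Ucp3* lies at chr7:100472990-100486432 and *Ucp2* at chr7:100493337-100502020, with 6904 bp between them. *Ucp1* lies at chr8:83290352-83298452. Their RefSeq promoter windows (GRCm38.p6, plus strand, 250 bases before to 50 after the start) are shown because *Ucp2* and *Ucp3* are the pair that could be measured side by side, while *Ucp1* is the thermogenic gene of the family and was not detected. Capitals mark the nuclear receptor half-site AGGTCA and the CRE half-site TGACG, each searched on both strands (as TGACCT and CGTCA on the other).
Ucp3: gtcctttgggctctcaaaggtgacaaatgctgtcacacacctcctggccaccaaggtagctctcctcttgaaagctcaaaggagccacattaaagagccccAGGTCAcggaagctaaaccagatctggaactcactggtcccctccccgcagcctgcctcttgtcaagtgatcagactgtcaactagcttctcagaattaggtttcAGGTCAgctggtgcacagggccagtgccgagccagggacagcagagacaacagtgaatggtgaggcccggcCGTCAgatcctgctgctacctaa
Ucp2: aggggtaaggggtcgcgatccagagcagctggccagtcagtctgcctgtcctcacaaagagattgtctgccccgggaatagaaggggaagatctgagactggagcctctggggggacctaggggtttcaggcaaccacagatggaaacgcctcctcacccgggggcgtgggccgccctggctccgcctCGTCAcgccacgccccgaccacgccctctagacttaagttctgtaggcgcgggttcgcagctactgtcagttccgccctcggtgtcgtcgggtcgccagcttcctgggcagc
Ucp1: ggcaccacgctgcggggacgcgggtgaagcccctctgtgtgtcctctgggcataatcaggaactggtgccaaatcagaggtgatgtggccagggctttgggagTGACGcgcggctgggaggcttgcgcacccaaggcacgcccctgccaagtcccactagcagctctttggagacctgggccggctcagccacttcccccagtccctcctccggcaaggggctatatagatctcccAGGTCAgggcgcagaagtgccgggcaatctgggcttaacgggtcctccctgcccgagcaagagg

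These windows lie at chr7:100472741-100473040 (*Ucp3*), chr7:100493108-100493407 (*Ucp2*) and chr8:83290098-83290397 (*Ucp1*). The *Ucp3* window held 2 nuclear receptor half-sites, the *Ucp1* window 1 and the *Ucp2* window 0, and each of them held 1 CRE half-site. Of 32851 promoter windows of the same length, 16.3% held the nuclear receptor half-site and 20.8% the CRE half-site, so both strings are common. A match describes letters and not binding, which was not measured.

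*Ucp3*, a mitochondrial carrier best known from skeletal muscle and brown fat, was counted 408, 433 and 416 times in AdLacZ replicates 1, 2 and 3 and 650, 724 and 474 times in the Ad*Lmo3* replicates. After normalization, the AdLacZ libraries stood at 11.5, 11.1 and 12.3 CPM, and the Ad*Lmo3* libraries at 17.5, 19.7 and 17.5 CPM. Every Ad*Lmo3* library lay above every AdLacZ library, and groups without overlap were seen for 26.5% of all tested genes. The means were 11.6 ± 0.605 and 18.3 ± 1.22 CPM (SD over 3 libraries). The change was 0.65 on the log2 scale (SE 0.091, 95% interval 0.44 to 0.86), at an adjusted p of 0.0102 in edgeR's quasi-likelihood test over 12766 genes. *Ucp3* was the 1 member called of the 3 that had enough counts to be tested, and across all tested genes 4.28% were called at an adjusted p under 0.05, 2.71% as higher in Ad*Lmo3* and 1.57% as lower. Without AdLacZ replicate 3 the change was 0.70 with an adjusted p of 0.0512, above the threshold, and without any other single library the adjusted p stayed between 0.0181 and 0.0493. As these are bulk cultures, more adipocytes and more *Ucp3* RNA per adipocyte cannot be told apart.

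*Ucp2*, the widely expressed member of the family, had 7189, 8634 and 7506 counts in AdLacZ and 8262, 9423 and 6584 counts in Ad*Lmo3* libraries. The normalized AdLacZ values were 202, 221 and 221 CPM, and those of Ad*Lmo3* were 223, 256 and 244 CPM. The groups did not overlap, although the highest AdLacZ and the lowest Ad*Lmo3* library were close, and non-overlapping groups were seen for 26.5% of all tested genes. Mean levels were 215 ± 11.1 and 241 ± 16.6 CPM (SD, n = 3 each). The log2 fold change was 0.17 (SE 0.077, 95% interval -0.01 to 0.34), with an adjusted p of 0.275 in the same edgeR fit, so that a difference was not shown. Of the read-length stretches of *Ucp2* transcripts, 3.13% also occur in *Dnajb13*, which overlaps *Ucp2* on the opposite strand, whereas none of *Ucp3* occur in another gene. The strand setting of the counting is not given in the sources used here.

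**Figure D1:**
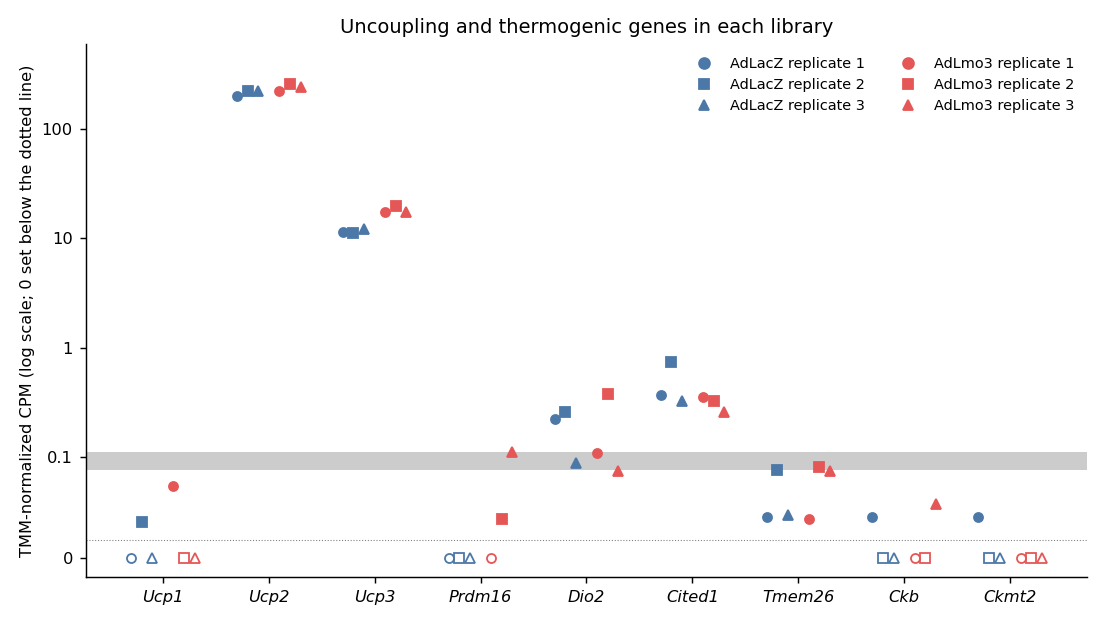
TMM-normalized CPM of the 9 genes in each library on a log axis, with values of 0 drawn as open symbols below the dotted line and a grey band at the level of 3 counts (0.0768 to 0.111 CPM). *Ucp2* and *Ucp3* lie far above the band, *Cited1* and *Dio2* lie near it, and the other 5 genes lie within or under it.

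Per kilobase of exon, *Ucp2* was the more abundant transcript. Its level was 30.7 ± 1.58 RPKM in AdLacZ and 34.5 ± 2.38 RPKM in Ad*Lmo3*, against 3.70 ± 0.193 and 5.82 ± 0.390 RPKM for *Ucp3* (SD, n = 3 each). Averaged over the 6 libraries, *Ucp2* ranked above 87.5% and *Ucp3* above 42.4% of the 12271 tested genes with an annotated length. The *Ucp2* to *Ucp3* ratio of RPKM was 7.90, 8.94 and 8.09 in AdLacZ replicates 1 to 3 and 5.70, 5.84 and 6.23 in Ad*Lmo3* replicates 1 to 3. *Ucp1*, with 3 counts in the 6 libraries together, gave *Ucp2* to *Ucp1* and *Ucp3* to *Ucp1* ratios per exon length of 3714 (95% exact interval 1271 to 18010) and 540 (185 to 2620), and these intervals cover counting error only. With the longest transcript in place of all exons, the mean level over the 6 libraries was 57.1 RPKM for *Ucp2* in place of 32.6, and 6.10 for *Ucp3* in place of 4.76.

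Within a library, the ratio of *Ucp3* to *Ucp2* counts needs neither a scaling factor nor a gene length to be compared between groups. *Ucp3* counts amounted to 5.68%, 5.02% and 5.54% of *Ucp2* counts in AdLacZ replicates 1, 2 and 3, whereas the Ad*Lmo3* replicates had 7.87%, 7.68% and 7.20%. The ratio was higher in all 3 Ad*Lmo3* libraries, by 1.40-fold on average (log2 difference 0.49). An exact two-sided permutation test gave p = 0.1, which is the smallest value that 3 against 3 libraries allow.

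The adipocyte markers rose in the same libraries. Of 8 markers (*Adipoq*, *Plin1*, *Lipe*, *Fabp4*, *Cfd*, *Pparg*, *Cidec* and *Lep*), 7 passed the edgeR test as higher in Ad*Lmo3*, where 2.71% of all tested genes did. As lower, 0 passed, and *Lep* passed in neither direction. The median log2 fold change of the 8 was 0.60, against 0.0014 for all tested genes. None of the 8 was at 0 in any library. Their summed level was 11299 to 11751 CPM with AdLacZ and 17055 to 21217 CPM with Ad*Lmo3*. Without AdLacZ replicate 3, 1 of the 8 was called, without AdLacZ replicate 2 or Ad*Lmo3* replicate 2, 3 were, and without AdLacZ replicate 1, 4 were. Without Ad*Lmo3* replicate 3, 6 were called, and without Ad*Lmo3* replicate 1, 7 were.

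Set against these markers, a comparison chosen after the values were seen, *Ucp3* had 9.78, 9.81 and 10.4 counts per 10000 marker counts in AdLacZ replicates 1, 2 and 3. The Ad*Lmo3* values were 10.3, 10.1 and 8.27, which overlapped with AdLacZ (0.95-fold, exact permutation p = 0.8, two-sided, n = 3 each). *Ucp2* had 172, 196 and 188 counts per 10000 marker counts in AdLacZ and 131, 131 and 115 in Ad*Lmo3* libraries, and these groups did not overlap (0.677-fold, exact permutation p = 0.1, the smallest possible). The log2 fold change of *Ucp3* (0.65) lay near the marker median of 0.60 and that of *Ucp2* (0.17) under it. The part of the marker shift in the *Ucp3* difference was not tested.

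**Figure D2:**
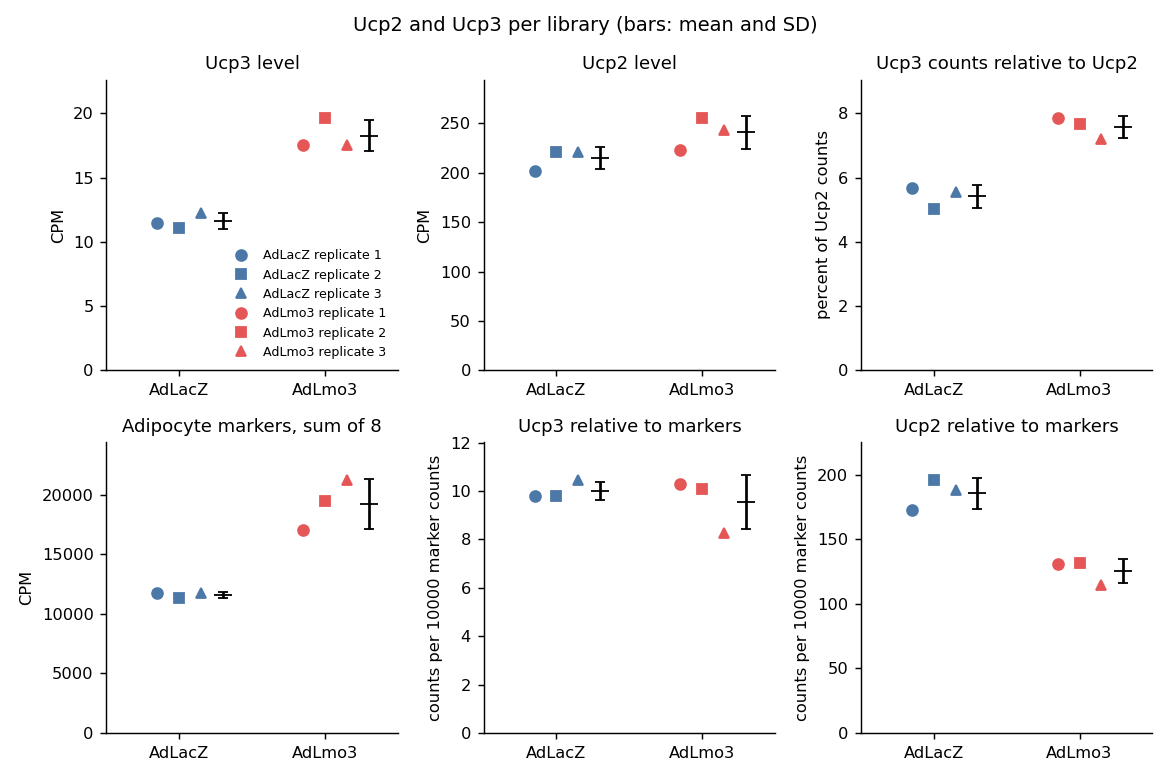
Levels of *Ucp3*, *Ucp2* and the summed adipocyte markers in CPM, *Ucp3* as a percentage of *Ucp2* counts, and *Ucp3* and *Ucp2* counts per 10000 adipocyte marker counts, by library, with black bars for the mean and SD of 3 libraries. *Ucp3* CPM separate the groups (11.1 to 12.3 against 17.5 to 19.7), whereas *Ucp3* counts per 10000 marker counts overlap.

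No gene passed the edgeR test in the marker lists of skeletal muscle, macrophages and preadipocytes or fibroblasts. For skeletal muscle, where *Ucp3* is also expressed, *Myod1* was at 0 in all libraries, *Myog* and *Myh1* had at most 2 counts, and 0 of 2 tested markers of 7 passed the edgeR test (1 at an unadjusted p under 0.05, 0 with DESeq2 and limma voom). *Acta1* levels were 8.76 ± 2.24 CPM with AdLacZ and 4.34 ± 2.92 CPM with Ad*Lmo3* (adjusted p = 0.240), and *Tnnt3* 0.226 ± 0.0960 and 0.312 ± 0.251 CPM (adjusted p = 0.822, SD, n = 3). *Myh2* had 5 counts in Ad*Lmo3* replicate 3 and 0 in every other library, and it was not tested. Summed, the muscle markers ranged from 6.68 to 10.9 CPM with AdLacZ and from 2.23 to 7.67 CPM with Ad*Lmo3*. Without Ad*Lmo3* replicate 1, *Acta1* was called as lower (log2 fold change -1.70, adjusted p = 0.0320).

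For macrophages, *Adgre1* and *Ptprc* had at most 2 counts, and 0 of 3 tested markers of 5 passed in edgeR, DESeq2 or limma voom (0 at an unadjusted p under 0.05 in edgeR). *Cd14*, which made up most of the summed level, had 11.4 ± 0.706 and 10.1 ± 2.20 CPM in AdLacZ and Ad*Lmo3* (log2 fold change -0.18, adjusted p = 0.587), and *Cd68* 3.31 ± 1.16 and 1.97 ± 0.622 CPM (adjusted p = 0.246, SD, n = 3). *Csf1r*, the remaining tested marker, went the other way, at 0.490 ± 0.136 and 0.678 ± 0.148 CPM (log2 fold change 0.49, adjusted p = 0.442, edgeR, SD, n = 3). The summed list ranged from 14.4 to 16.0 CPM with AdLacZ and from 11.6 to 14.5 CPM with Ad*Lmo3*. The preadipocyte and fibroblast list, led by *Col1a1* (log2 fold change 0.16, adjusted p = 0.691) and *Dlk1* (0.01, adjusted p = 0.993), had 0 of 8 tested genes of 9 called in edgeR, DESeq2 or limma voom and 0 at an unadjusted p under 0.05 in edgeR. Of the 8 tested, 6 were higher and 2 lower in Ad*Lmo3*, with a median log2 fold change of 0.18 against 0.0014 for all tested genes. *Ly6a* had 77.2 ± 18.4 CPM with AdLacZ and 133 ± 102 CPM with Ad*Lmo3* (0.78, adjusted p = 0.442, edgeR, SD, n = 3). *Cd34* had a log2 fold change of -0.42 (adjusted p = 0.718, edgeR). The summed level of this list overlapped between the groups, at 5803 to 8068 CPM with AdLacZ and 6098 to 9228 CPM with Ad*Lmo3*.

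Interferon response genes, which adenovirus can induce, had 0 of 8 tested genes called in edgeR, DESeq2 or limma voom and 0 at an unadjusted p under 0.05 in edgeR. They did vary between libraries of the same virus, with a summed level of 549 CPM in Ad*Lmo3* replicate 1 and 2890 CPM in Ad*Lmo3* replicate 3, against 1036 to 1405 CPM in AdLacZ. *Ifit3*, an interferon-induced gene of the list, had a log2 fold change of 0.72 (adjusted p = 0.599, edgeR). *Ucp3* was 17.5 CPM in both Ad*Lmo3* libraries at the ends of this range. It was 19.7 CPM in Ad*Lmo3* replicate 2, where the interferon list summed to 1222 CPM. A relation between these levels was not tested.

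Detection set the limit for the regulators. *Prdm16* (chr4:154316125-154636873) had 0 counts in each AdLacZ library and 0, 1 and 3 counts in Ad*Lmo3* replicates 1, 2 and 3. All 6 values are at or under 3 counts, so no fold is given here, and a difference was not detectable at this depth. *Dio2* (chr12:90724552-90738438) had 8, 10 and 3 counts in AdLacZ and 4, 14 and 2 counts in Ad*Lmo3* libraries. Its 21 and 20 counts per group gave 0.193 CPM (95% exact Poisson interval 0.120 to 0.296) and 0.198 CPM (0.121 to 0.306), with counting error only, and the libraries of the groups overlapped. *Dio2* passed 3 counts in 4 of 6 libraries and stayed under the filter for testing.

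*Cited1* (chrX:102247381-102252181), which encodes a transcriptional co-activator, had 13, 29 and 11 counts in AdLacZ and 13, 12 and 7 counts in Ad*Lmo3* libraries. These were 0.365, 0.742 and 0.324 CPM against 0.351, 0.326 and 0.259 CPM. AdLacZ replicate 2 stood above the others, and the remaining libraries overlapped. The log2 fold change was -0.61 (SE 0.41, 95% interval -1.56 to 0.34, adjusted p = 0.463 in edgeR), and it was -0.13 (adjusted p = 0.885) without AdLacZ replicate 2. *Tmem26* (chr10:68723646-68782650), which encodes a membrane protein of beige adipocytes, had 1, 3 and 1 counts in AdLacZ and 1, 3 and 2 in Ad*Lmo3* libraries, all at or under the detection limit.

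The creatine kinases were not detected. *Ckb* (chr12:111669361-111672338), the brain-type cytosolic enzyme, had 1, 0 and 0 counts in AdLacZ and 0, 0 and 1 in Ad*Lmo3* libraries. *Ckmt2* (chr13:91853387-91876885), a mitochondrial isoform, had 1 count in AdLacZ replicate 1 and 0 in the other 5 libraries. *Ucp1* had 0, 1 and 0 counts in AdLacZ and 2, 0 and 0 in Ad*Lmo3* libraries. For *Ucp1* the exact Poisson intervals of the pooled counts reached up to 0.0513 CPM for AdLacZ and 0.0716 CPM for Ad*Lmo3*, and for *Ckb* up to 0.0513 and 0.0552 CPM. *Ckb* shares 5.82% of its read-length stretches with the gene *Gm12892*, *Ckmt2* shares 0.779% with *1700119I11Rik*, and *Ucp1* shares none with another gene. With all genes that had a count in the fit (18078 genes), none of the 6 low members passed edgeR's test (lowest adjusted p = 0.466, for *Prdm16*).

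The rest of the creatine pathway was partly expressed. *Ckm* and *Ckmt1*, the remaining creatine kinases of the list, had at most 2 counts, and *Gatm*, which begins creatine synthesis, at most 1. *Gamt*, which completes it, had 669, 648 and 652 counts in AdLacZ and 991, 877 and 654 counts in Ad*Lmo3* libraries, or 18.2 ± 1.42 and 24.9 ± 1.59 CPM (SD, n = 3). It was the 1 gene called of 3 tested, where 4.28% of all tested genes were called. Its difference was 0.45 on the log2 scale (SE 0.089, adjusted p = 0.0316, edgeR). The call was lost without each of the 6 libraries in turn (adjusted p 0.0651 to 0.0972) and with library totals in place of TMM (0.0527). The creatine transporter gene *Slc6a8*, named after its values were seen, had 35.6 ± 4.30 and 36.9 ± 6.78 CPM (adjusted p = 0.877, edgeR).

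In a list of 35 further brown and beige adipocyte genes, 22 were tested and 10 never exceeded 3 counts. Of the 22, 2 passed as higher in Ad*Lmo3* and 1 as lower, where 2.71% and 1.57% of all tested genes did. At an unadjusted p under 0.05 in edgeR there were 9, against 2635 of all 12766 tested genes. DESeq2 called 8 of the 22 (6 higher, 2 lower) and 1110 of the 12766. The median log2 fold change of the 22 was -0.00079, close to the 0.0014 of all tested genes, with 11 genes higher and 11 lower. The summed level of the list was 609 to 706 CPM with AdLacZ and 808 to 824 CPM with Ad*Lmo3*, a difference that was not tested. *Slc36a2*, which encodes an amino acid transporter used as a brown fat surface marker, averaged 65.5 ± 6.39 CPM with AdLacZ and 109.8 ± 2.82 CPM with Ad*Lmo3* (log2 fold change 0.75, adjusted p = 0.00352, edgeR). *Adrb3*, the β3-adrenergic receptor gene, had 45.4 ± 5.06 and 119 ± 39.3 CPM (1.39, adjusted p = 0.0150), and *Fgf21*, which encodes a secreted metabolic hormone, had 1.60 ± 0.120 and 0.364 ± 0.128 CPM (-2.15, adjusted p = 0.0102, SD, n = 3). None of the groups of these 3 genes overlapped, which held for 26.5% of all tested genes. The 3 genes were named because they passed the test on the same values, so this adds no support.

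*Slc36a2* was called without each single library. The *Adrb3* call was lost without AdLacZ replicate 2 (adjusted p = 0.0547), AdLacZ replicate 3 (0.0902) or Ad*Lmo3* replicate 2 (0.0673), and the *Fgf21* call without AdLacZ replicate 3 (0.0558). Without AdLacZ replicate 3, 1 gene of the list was called, and without Ad*Lmo3* replicate 2, 2 genes. *Cidea*, a lipid droplet protein gene of brown fat, and *Ppargc1a*, a co-activator of mitochondrial biogenesis, were named after their values were seen. *Cidea* had 206, 575 and 216 counts in AdLacZ and 453, 342 and 212 in Ad*Lmo3* libraries (log2 fold change 0.13, adjusted p = 0.885), and *Ppargc1a* had 32.9 ± 3.03 and 34.7 ± 2.21 CPM (0.08, adjusted p = 0.668, SD, n = 3). Other uncalled genes, also named after their values were seen, differed more. *Ppargc1b* had 13.8 ± 3.59 CPM with AdLacZ and 26.6 ± 7.35 CPM with Ad*Lmo3* (0.94, adjusted p = 0.0610, edgeR). *Otop1* had 2.10 ± 0.512 and 1.06 ± 0.234 CPM (-0.98, adjusted p = 0.0834, edgeR). *Kcnk3* had 80.4 ± 13.2 and 111 ± 5.96 CPM (0.46, adjusted p = 0.0644, edgeR). *Nrg4* had 16.0 ± 0.891 and 21.1 ± 2.43 CPM (0.40, adjusted p = 0.0705, edgeR, SD, n = 3). DESeq2 called *Ppargc1b* (adjusted p = 0.000198), *Kcnk3* (0.00291), *Nrg4* (0.0165) and *Clstn3* (0.0269) as higher and *Otop1* (0.0343) as lower.

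**Figure D3:**
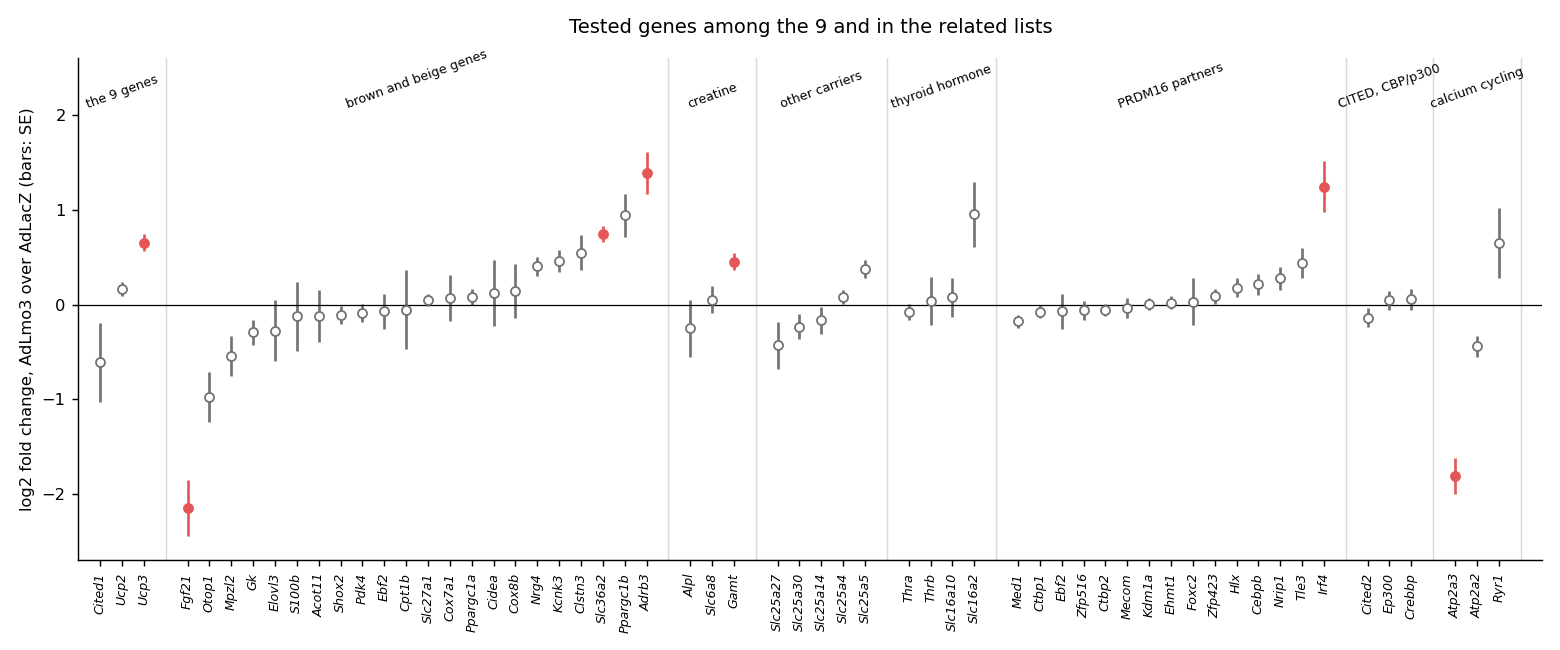
Log2 fold change (Ad*Lmo3* over AdLacZ) with its standard error for the tested genes among the 9 and in 7 related lists, ordered within each list. Red filled points passed an adjusted p under 0.05 in edgeR, and these were *Ucp3*, *Fgf21*, *Slc36a2*, *Adrb3*, *Gamt*, *Irf4* and *Atp2a3*.

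The partners and antagonists of PRDM16 were expressed even though *Prdm16* was not detected, and all 15 listed genes were tested. Of these, 1 passed as higher and 0 as lower, where 4.28% of all tested genes were called, so that the count is near the background. The median log2 fold change was 0.018. The gene called was *Irf4*, a transcription factor of the thermogenic response, at 0.632 ± 0.164 CPM with AdLacZ and 1.52 ± 0.169 CPM with Ad*Lmo3* (SD, n = 3). Its counts were 16, 30 and 23 against 51, 54 and 46, and it differed by 1.25 on the log2 scale (SE 0.26, adjusted p = 0.0407, edgeR). The call was lost without each of the 6 libraries in turn (adjusted p 0.0625 to 0.140).

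Around *Dio2*, the other deiodinase genes *Dio1* and *Dio3* had at most 2 counts, and *Slco1c1*, a thyroid hormone carrier gene, had 0. The thyroid hormone receptor gene *Thra* averaged 124 ± 8.92 CPM with AdLacZ and 117 ± 9.14 CPM with Ad*Lmo3* (adjusted p = 0.645), and *Thrb* had 3.69 ± 0.355 and 3.81 ± 1.24 CPM (adjusted p = 0.956, SD, n = 3). None of the 4 tested genes of 7 passed in edgeR, DESeq2 or limma voom, and 1 had an unadjusted p under 0.05 in edgeR. In the list of the CITED family and the acetyltransferases CBP and p300, 0 of 3 tested genes of 4 passed in any of these tools and 0 had an unadjusted p under 0.05 in edgeR. *Cited2* (adjusted p = 0.482) and *Ep300* (adjusted p = 0.841) had log2 fold changes of -0.14 and 0.05, and *Cited4* was at 0.

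Of 5 other mitochondrial carriers with reported uncoupling activity, all tested, 0 passed in edgeR and limma voom and 1 with DESeq2, while 1 had an unadjusted p under 0.05 in edgeR. The adenine nucleotide translocases led in level. *Slc25a5* averaged 452 ± 4.24 CPM with AdLacZ and 586 ± 67.7 CPM with Ad*Lmo3* (log2 fold change 0.38, adjusted p = 0.0604), and *Slc25a4* had 470 ± 15.4 and 497 ± 32.6 CPM (0.08, adjusted p = 0.608, SD, n = 3). Without Ad*Lmo3* replicate 1, *Slc25a5* was called (0.45, adjusted p = 0.0347).

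Calcium pumping by SERCA proteins is another route described for UCP1-independent heat. *Atp2a3*, which encodes one of these pumps, had 799, 1293 and 1065 counts in AdLacZ and 262, 375 and 202 in Ad*Lmo3* libraries, or 29.0 ± 5.72 and 8.25 ± 1.69 CPM (SD, n = 3). It was lower by a log2 fold change of -1.81 (SE 0.19, adjusted p = 0.00352, edgeR), and it was called without each single library. It was the 1 gene called of 3 tested in a list of 6, where 4.28% of all tested genes were called. The regulator gene *Sln* was at 0 in all libraries. *Atp2a2*, another pump gene of this list, was more abundant, at 579 ± 46.8 CPM with AdLacZ and 427 ± 59.3 CPM with Ad*Lmo3* (SD, n = 3). It was not called in the full fit (log2 fold change -0.44, adjusted p = 0.0691, edgeR). Without Ad*Lmo3* replicate 1, *Atp2a2* was called as lower (-0.55, adjusted p = 0.0251).

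Over the 6 libraries, the tested genes whose mean-centred log2 CPM lay nearest to those of *Ucp3* were *Cebpa*, *Serpina3c* and *Car5b*, with root mean square differences of 0.062, 0.062 and 0.067. Their log2 fold changes were 0.59, 0.67 and 0.74, with adjusted p-values of 0.0111, 0.0129 and 0.00352 in edgeR. For *Ucp2* the nearest genes were *Atpaf2*, *Exoc7* and *Plekhf2* (0.025, 0.033 and 0.034). For *Cited1*, where counts were low, the distances were larger, with *Gap43*, *2010204K13Rik* and *Cyp26b1* at 0.12, 0.15 and 0.16.

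The direction of the tested members held under the other settings that were tried. *Ucp3* was higher in Ad*Lmo3* under all 14, with log2 fold changes of 0.58 to 0.70, and was called under 13. *Ucp2* was higher under all 14 (0.09 to 0.22) and called under 0 of them. *Cited1* was lower under all 13 settings in which it was tested (-0.82 to -0.13) and called under 0.

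**Figure D4:**
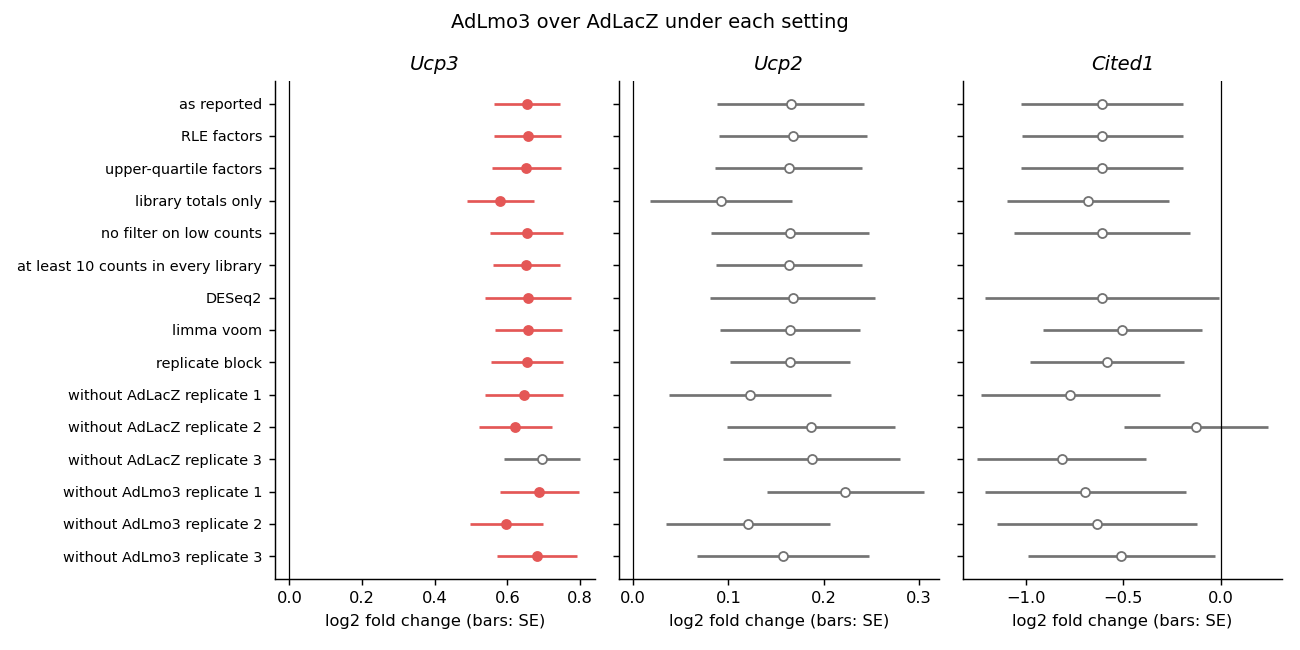
Log2 fold change (Ad*Lmo3* over AdLacZ) with its standard error for *Ucp3*, *Ucp2* and *Cited1* under the reported setting and each alternative, with red filled points for an adjusted p under 0.05. *Ucp3* stays between 0.58 and 0.70 and misses the threshold without AdLacZ replicate 3, and *Cited1* had too few counts to be tested when at least 10 counts were required in every library.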

How the data were processed

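RNA of 3 AdLacZ and 3 Ad*Lmo3* cultures was sequenced as single 75 bp reads. The authors mapped them with STAR 2.5.0b to mm10 and deposited raw counts per gene symbol, 1 table per library. The counting program, annotation and strand setting are not given in the sources used here. Reads given to no gene (7.15% to 8.94%) or to several (0.476% to 0.543%) were left out.

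Genes kept by filterByExpr were scaled by TMM and tested with the quasi-likelihood test of edgeR 4.0.16 (R 4.3.3), with group as the only term and Benjamini-Hochberg adjustment over 12766 genes at 0.05. DESeq2 1.42.0, limma 3.58.1 (voom), other scaling and filters, the replicate block and leaving out each library were alternatives. CPM use TMM-scaled totals, and RPKM use exon lengths of GENCODE (GRCm38). Promoters came from RefSeq. Figures were drawn with matplotlib 3.10.9.

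The 9 members and all lists were chosen with earlier results of these data known. From each list the genes passing the test were named (at most 4, lowest adjusted p first), otherwise the 2 most abundant, except for 1 gene that is not reported here. For each tested member, the 3 genes nearest in pattern were named.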

Additional observations from a re-analysis of the deposited data

How the results depend on the processing

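Of 14 other settings, *Ucp3* was called in all except the one without AdLacZ replicate 3. Leaving out 1 library gave 0 to 1 members called and 77 to 501 genes called, against 1 and 547. The fewest calls, for members and for genes, came without AdLacZ replicate 3. DESeq2 called 1110 genes. Library totals in place of TMM turned the split of calls from 346 higher and 201 lower to 266 and 501, with a median log2 fold change over all genes of -0.072. The same-numbered libraries deviated together only weakly (correlations of 0.051, 0.23 and 0.23), so the numbers were not taken to pair them. With the replicate block, 498 genes and 1 member were called, *Ucp3* had an adjusted p of 0.0243, and *Irf4* was no longer called (0.0561). The brown and beige list had 3 calls, against 8 with DESeq2, 5 without a count filter and 1 without AdLacZ replicate 3. The creatine list went from 1 to 0 calls with library totals, the PRDM16 list from 1 to 2 with DESeq2 (*Tle3* added), and the calcium list from 1 to 2 with library totals, no filter or DESeq2 (*Atp2a2* added). The carrier list went from 0 to 1 with DESeq2 and with no filter (*Slc25a5*). *Ucp1*, *Prdm16*, *Dio2*, *Tmem26*, *Ckb* and *Ckmt2* had too few counts for the filter of the main fit. The causes of these shifts were not tested.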
